A study of Mus musculus with 28 samples.

Results

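Collagens, laminins, integrins and the glycoproteins that join them were examined in mouse E14 embryonic stem cells as the cells left and re-entered the 2iL medium. Members were taken by gene symbol from the 30386 genes of the series: collagen chains, laminin chains, symbols that begin with Itga or Itgb and a digit, and the 6 genes Fn1, Nid1, Nid2, Hspg2, Sparc and Agrn. Of 85 symbols that matched, 49 reached a mean of at least 3 counts in each 1000000 (CPM) in at least 1 group. These 49 were 24 of 44 collagen chains, 8 of 11 laminin chains, 9 of 20 integrin chains, all 6 of the named glycoproteins and 2 of 4 integrin-like symbols. The last 2 are not integrin chains: Itgb1bp1 encodes a protein that binds the tail of the β1 integrin, and Itgb3bp encodes a centromere protein. Of the 49, 17 were under that limit in 2iL and passed only through another group, so that their being higher there than in 2iL follows from the choice and is given as a description. Just inside the limit lay Col16a1 at a highest group mean of 3.23 CPM, Itgb4 at 3.20 and Col6a3 at 3.12. Just outside it lay Itga4 at 2.97, Itga9 at 2.86 and Itgb3 at 2.53.

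E14 is a blastocyst-derived line, and the labels name no genotype change or transgene. All cells were grown on gelatin in serum-free N2B27 medium. In the 2iL group the medium also held 3 µM CHIR99021, an inhibitor of the kinase GSK3, 1 µM PD0325901, an inhibitor of the kinase MEK, and the cytokine LIF. The 24 h, 48 h, 96 h and 120 h groups had been without 2iL for those times by their sample labels, although the treatment protocol names times up to 96 h only. The 48 h + 2iL and 96 h + 2iL groups had been without it for 48 or 96 h and then received it again for 24 h. Each of the 7 groups holds 4 libraries, 1 from each of 4 numbered experiments, so 96 h + 2iL and 120 h are equal in elapsed time. The labels do not say whether libraries of a group came from separate cultures, so p-values measure the spread between these libraries, which may be partly technical.

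Polyadenylated RNA was read by 3′ digital gene expression sequencing, with 1554830 to 2828694 counts assigned to genes per library. The 49 members held 0.125% to 0.218% of those counts, so several of them rest on few reads. Nanog, a marker of the ground state, had 120.1 to 174 CPM in 2iL and 8.78 to 21.98 at 48 h, and Sox1, a marker of neural progenitors, 1.12 to 8.18 in 2iL and 101 to 208 at 120 h. After the return of 2iL Nanog read 132, 149, 75.7 and 103 CPM in the 48 h + 2iL libraries of experiments 1 to 4. The 96 h + 2iL libraries stood apart from each other for this gene, at 57.2, 53.8, 6.30 and 21.6 CPM.

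Basement membranes are sheets of matrix that underlie epithelia. Laminin trimers of an α, a β and a γ chain polymerise at the cell surface, where integrins and dystroglycan hold them. Nidogens and the heparan sulfate proteoglycans perlecan and agrin link that layer to a network of collagen IV. In the mouse embryo laminin with the α1, β1 and γ1 chains is among the first matrix laid down. The epiblast rests on a basement membrane when it forms an epithelium. Fibrillar collagens form separate cables, and most are made by connective tissue, cartilage or the notochord.

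Collagen IV genes lie in pairs that are transcribed away from each other, and several results below concern such pairs and 2 genes that moved in opposite directions. Their upstream sequence is therefore shown from RefSeq on GRCm38.p6 (mm10), 5′ to 3′ on the strand of the gene, trimmed to bases outside annotated exons, except for the last line, which is the overlap of 2 first exons. Windows were found for 37 of the 49 members. Capitals mark GGGCGG, the core of the Sp1 motif, or CCAAT, the core of the NF-Y motif, on either strand (CCGCCC and ATTGG on the other strand). The motifs do not overlap each other in these stretches. Of 32851 annotated windows of 250 bases before a start, 32.7% hold GGGCGG and 33.8% hold CCAAT, so each match is a description. Most of the printed stretches are shorter than those windows.
Col4a5, chrX:141475169-141475384, plus strand: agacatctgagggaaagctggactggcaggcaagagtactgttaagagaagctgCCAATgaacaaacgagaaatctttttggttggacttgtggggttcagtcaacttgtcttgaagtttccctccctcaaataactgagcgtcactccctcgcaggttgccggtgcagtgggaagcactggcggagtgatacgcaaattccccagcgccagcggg
Col4a6, chrX:141474077-141474326, minus strand: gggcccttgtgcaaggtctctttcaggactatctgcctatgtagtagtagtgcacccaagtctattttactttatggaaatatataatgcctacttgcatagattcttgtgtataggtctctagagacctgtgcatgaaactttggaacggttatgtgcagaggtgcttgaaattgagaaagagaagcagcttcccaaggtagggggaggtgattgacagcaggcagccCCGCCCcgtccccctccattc
Lamb1, chr12:31265043-31265233, plus strand: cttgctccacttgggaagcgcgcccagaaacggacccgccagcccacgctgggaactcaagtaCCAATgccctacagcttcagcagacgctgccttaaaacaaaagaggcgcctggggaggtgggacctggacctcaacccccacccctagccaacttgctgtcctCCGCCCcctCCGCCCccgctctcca
Nid1, chr13:13437352-13437550, plus strand: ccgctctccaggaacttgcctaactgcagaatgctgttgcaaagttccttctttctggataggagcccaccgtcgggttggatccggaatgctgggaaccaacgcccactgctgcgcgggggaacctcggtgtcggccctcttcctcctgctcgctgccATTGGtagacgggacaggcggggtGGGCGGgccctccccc
Col4a1 and Col4a2 shared start, chr8:11312805-11312826, plus strand: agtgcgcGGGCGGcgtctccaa

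The annotated first exons of Col4a1 on the minus strand and Col4a2 on the plus strand overlap over the 22 bases of the last line. Col4a6 and Col4a5 are also head to head, with 1342 bases between their annotated starts. The Lamb1 stretch holds CCGCCC at 2 places and CCAAT at 1, and the Nid1 stretch holds 1 of each motif. The Col4a5 stretch holds CCAAT at 1 place, and its full window of 250 bases also holds 1 GGGCGG, in the 34 bases trimmed next to the start. The Col4a6 stretch, a full window, holds CCGCCC at 1 place and no CCAAT.

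On withdrawal of 2iL the laminin chains described here fell, other than the β1 chain, which rose. At 48 h Lama1, Lama5, Lamb2 and Lamc1 fell and Lamb1 rose. The same 5 calls, in the same directions, were made at 96 h and at 120 h. Over all genes tested 27.8% were called at 48 h, 41.1% at 96 h and 47.3% at 120 h. A gene is said to have risen or fallen where edgeR's quasi-likelihood test gave a Benjamini-Hochberg adjusted p under 0.05 over the 11080 genes tested. Changes are on the log2 scale with the standard error of the model, and levels are CPM after TMM scaling. The median change over the laminins tested was -1.19 at 48 h and -1.23 at 120 h, beside 0.02 and 0.01 over all genes tested. In these bulk samples fewer cells of a type and less RNA per cell cannot be told apart.

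Lama1, which encodes the α1 chain of the early embryonic laminin, lies on chromosome 17 from 67697259 to 67822647. Its libraries read 35.6, 31.6, 51.996 and 46.9 CPM in 2iL, 8.47, 6.57, 7.53 and 9.63 at 24 h and 5.16, 1.47, 3.65 and 0 at 48 h, in the order of experiments 1 to 4. At 96 h they read 7.31, 3.62, 16.1 and 5.25, and at 120 h 8.54, 5.44, 17.5 and 12.4. Every 2iL library was above every library without 2iL, and the lowest values were at 48 h. The change in Lama1 was -2.37 ± 0.40 at 24 h (adjusted p = 6.3e-05) and -3.96 ± 0.47 at 48 h (adjusted p = 5.2e-08). It was -2.37 ± 0.39 at 96 h and -1.91 ± 0.38 at 120 h.

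The γ1 chain gene Lamc1, on chromosome 1 from 153218922 to 153332786, is part of nearly every laminin trimer. Its 4 libraries read 75.5, 68.8, 86.4 and 76.9 CPM in 2iL, 51.1, 42.8, 33.4 and 54.3 at 48 h and 30.1, 30.2, 16.6 and 29.3 at 120 h. At 24 h they read 67.8, 57.7, 79.7 and 99.8, a range that holds all the 2iL values. The fall of Lamc1 was first called at 48 h, with a change of -0.76 ± 0.23 (adjusted p = 0.011), and reached -1.55 ± 0.23 at 96 h and -1.53 ± 0.23 at 120 h.

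Lama5, which encodes the α5 chain found in most later basement membranes, fell from 42.3, 33.8, 41.5 and 41.3 CPM in 2iL to 20.6, 16.7, 20.1 and 22.6 at 48 h. The change was -0.99 ± 0.27 (adjusted p = 0.0058), and at 120 h it was -0.94 ± 0.27 (adjusted p = 0.0042). At 24 h its libraries read 21.2, 20.6, 20.7 and 33.03, and it was called only with experiment as a block (adjusted p = 0.057 without and 0.027 with the block). The 96 h call, -0.76 ± 0.26 (adjusted p = 0.02), was lost without the experiment 1 library (adjusted p = 0.066) or the experiment 3 library (adjusted p = 0.051) of 96 h. Lamb2, the β2 chain, read 32.2, 42.7, 69.95 and 54.3 CPM in 2iL and 18.6, 23.6, 15.2 and 18.9 at 48 h, with no overlap, and fell by 1.38 ± 0.22 (adjusted p = 1.4e-05). Its change was -0.96 ± 0.21 at 96 h and -0.79 ± 0.21 at 120 h, and the 24 h call (-0.79 ± 0.22) was lost without the experiment 3 library of 2iL (adjusted p = 0.083).

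Lamb1, the β1 chain that pairs with α1 and γ1, moved the other way and lies on chromosome 12 from 31265234 to 31329644. Its libraries read 11.5, 12.4, 40.4 and 27.1 CPM in 2iL, 10.9, 11.3, 16.9 and 16.5 at 24 h and 42.8, 33.4, 47.4 and 36.6 at 48 h. They read 72.6, 64.4, 81.2 and 69.9 at 96 h and 76.1, 77.7, 54.7 and 71.1 at 120 h, all above the 2iL libraries. The 2iL values of experiments 3 and 4 stood above those of experiments 1 and 2, and the 48 h libraries overlapped with them. Lamb1 rose by 1.64 ± 0.29 at 96 h (adjusted p = 2.4e-05) and 1.60 ± 0.29 at 120 h (adjusted p = 2.8e-05). The 48 h call, 0.79 ± 0.30 (adjusted p = 0.047), was lost when any of 6 of the 8 libraries was left out (adjusted p = 0.057 to 0.19): all but the experiment 3 library of 2iL, without which the change was 1.25 (adjusted p = 0.0025), and the experiment 2 library of 48 h.

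Lama4 and Lamb3 did not have enough counts for the test. Lama4 stayed between group means of 1.14 ± 0.817 CPM in 2iL and 3.21 ± 2.16 in 96 h + 2iL (SD, n = 4). Lamb3, the β3 chain of epithelial laminin, had 3 counts in the 4 libraries of 2iL, 0 at 24 h and 9 at 48 h.

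Glycoproteins that link laminin to the matrix, and fibronectin and Sparc beside them, fell. All 6 of Nid1, Nid2, Hspg2, Agrn, Fn1 and Sparc fell at 48 h, 5 of 6 at 96 h and 5 of 6 at 120 h, and none rose in any comparison with 2iL. Of all genes tested 13.2% fell at 48 h, 19.2% at 96 h and 22.6% at 120 h. Their median change was -1.13 at 48 h, -1.34 at 96 h and -1.44 at 120 h. Over all genes tested, the median at 96 h was 0.02.

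Nid1, which encodes a nidogen and lies on chromosome 13 from 13437551 to 13512269, read 63.5, 57.3, 68.1 and 61.6 CPM in 2iL and 30.3, 22.1, 18.8 and 46.8 at 24 h. At 48 h it read 8.78, 7.86, 6.69 and 10.99, at 96 h 12.8, 2.82, 6.08 and 7.67 and at 120 h 12.6, 4.95, 5.83 and 5.33. From 48 h on, the highest library without 2iL was at 12.8 CPM and the lowest 2iL library at 57.3. Its change was -2.86 ± 0.37 at 48 h (adjusted p = 3.6e-07), -3.10 ± 0.37 at 96 h and -3.08 ± 0.37 at 120 h (adjusted p = 2.6e-08). The 24 h call, -1.10 ± 0.33 (adjusted p = 0.02), was lost without the experiment 2 library (adjusted p = 0.065) or the experiment 3 library (adjusted p = 0.076) of 24 h.

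Nid2, the other nidogen gene, was called from 48 h. It read 56.8, 48.7, 49.4 and 65.01 CPM in 2iL, 53.2, 35.7, 47.04 and 42.7 at 24 h, 41.3, 23.1, 15.2 and 37.8 at 48 h and 14.1, 15.3, 10.8 and 10.7 at 120 h. The 48 h values overlapped with none of the 2iL values but ranged widely, and the call, -0.90 ± 0.29 (adjusted p = 0.019), was lost without the experiment 2 or 3 library of 48 h or the experiment 4 library of 2iL (adjusted p = 0.062, 0.087 and 0.052). At 96 h the change was -1.83 ± 0.30 and at 120 h -2.10 ± 0.31 (adjusted p = 1.1e-06). Whether the 2 nidogens differ in timing was not tested.

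Fn1 encodes fibronectin, the main ligand of the α5β1 integrin, and lies on chromosome 1 from 71585520 to 71653200. Its libraries read 145, 236, 258 and 261 CPM in 2iL, 114, 115, 132 and 144 at 24 h and 92.9, 73.2, 101 and 81.8 at 48 h. At 96 h they read 61.7, 39.04, 56.003 and 53.3 and at 120 h 60.9, 38.6, 71.3 and 71.6. No library without 2iL reached the lowest 2iL library, and the 2iL library of experiment 1 was the lowest of its group. The change in Fn1 was -0.83 ± 0.18 at 24 h (adjusted p = 0.0015), -1.37 ± 0.19 at 48 h (adjusted p = 1.0e-06) and -2.10 ± 0.19 at 96 h (adjusted p = 1.7e-10). At 120 h it was -1.89 ± 0.19.

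Sparc encodes a secreted protein that binds collagen. It read 765, 851, 842 and 592 CPM in 2iL, 448, 460.1, 438 and 360.2 at 48 h, 510.2, 416, 633 and 467 at 96 h and 632, 394, 459.6 and 365 at 120 h. The experiment 3 library of 96 h and the experiment 1 library of 120 h overlapped with 2iL. The change was -0.84 ± 0.16 at 48 h (adjusted p = 1.5e-04), -0.59 ± 0.16 at 96 h and -0.72 ± 0.16 at 120 h. Hspg2, which encodes perlecan, read 15.4, 16.7, 26.9 and 27.7 CPM in 2iL, 28.4, 17.8, 28.2 and 18.6 at 24 h and 5.68, 6.88, 12.8 and 4.27 at 48 h, and fell by 1.55 ± 0.38 at 48 h (adjusted p = 0.0022). At 96 h it was called only with experiment as a block (adjusted p = 0.053 without and 0.041 with the block). Its 120 h call, a change of -0.996, was lost without any of the experiment 3 or 4 libraries of 2iL or the experiment 3 library of 120 h (adjusted p = 0.074, 0.061 and 0.052). Agrn, agrin, had group means of 84.2 ± 21.2 CPM in 2iL, 105 ± 29.7 at 24 h, 47.1 ± 9.73 at 48 h and 68.3 ± 5.91 at 120 h (SD, n = 4). It fell by 0.83 ± 0.21 at 48 h (adjusted p = 0.0033), and its 96 h call, -0.55 ± 0.21, was lost without any of 5 libraries (adjusted p = 0.089 to 0.15), those of experiments 1, 2 and 4 at 96 h and of experiments 3 and 4 in 2iL.

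Markers of other matrix-making cells were summed beside these falls. The 6 trophoblast markers summed to 69.7 to 148.7 CPM in 2iL, 17.6 to 41.5 at 48 h, 20.1 to 39.1 at 120 h and 93.6 to 170.0 in 48 h + 2iL. Of the 3 tested, 2 fell and 1 rose at 48 h. Tfap2c, which germ cells and naive pluripotent cells also express, held most of the sum, with a mean of 91.2 CPM in 2iL. Cdx2, a trophoblast regulator that the posterior embryo also expresses, had 118 counts in 2iL (mean 13.3 CPM), 1 at 24 h and 1 at 48 h, where its change was -6.08 ± 1.10 (adjusted p = 6.4e-05). Its means were 18.01 CPM at 120 h, 37.3 in 48 h + 2iL and 95.6 in 96 h + 2iL. Elf5 and Hand1 had 0 and 1 counts in 2iL. Neural crest markers summed to 15.3 to 24.1 CPM in 2iL and 5.49 to 11.6 at 48 h. Tfap2a held most of that sum, with means of 19.4 CPM in 2iL and 5.86 at 48 h (-1.70 ± 0.47, adjusted p = 0.006). Ets1 went from a mean of 0.79 CPM in 2iL to 7.34 at 120 h, where it rose by 3.13 ± 0.69, and Sox10 had 0 counts in 2iL. Endothelial markers summed to 3.85 to 20.4 CPM in 2iL and 9.72 to 11.6 at 48 h. The part of these cells in the laminin and glycoprotein results was not tested.

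**Figure D1:**
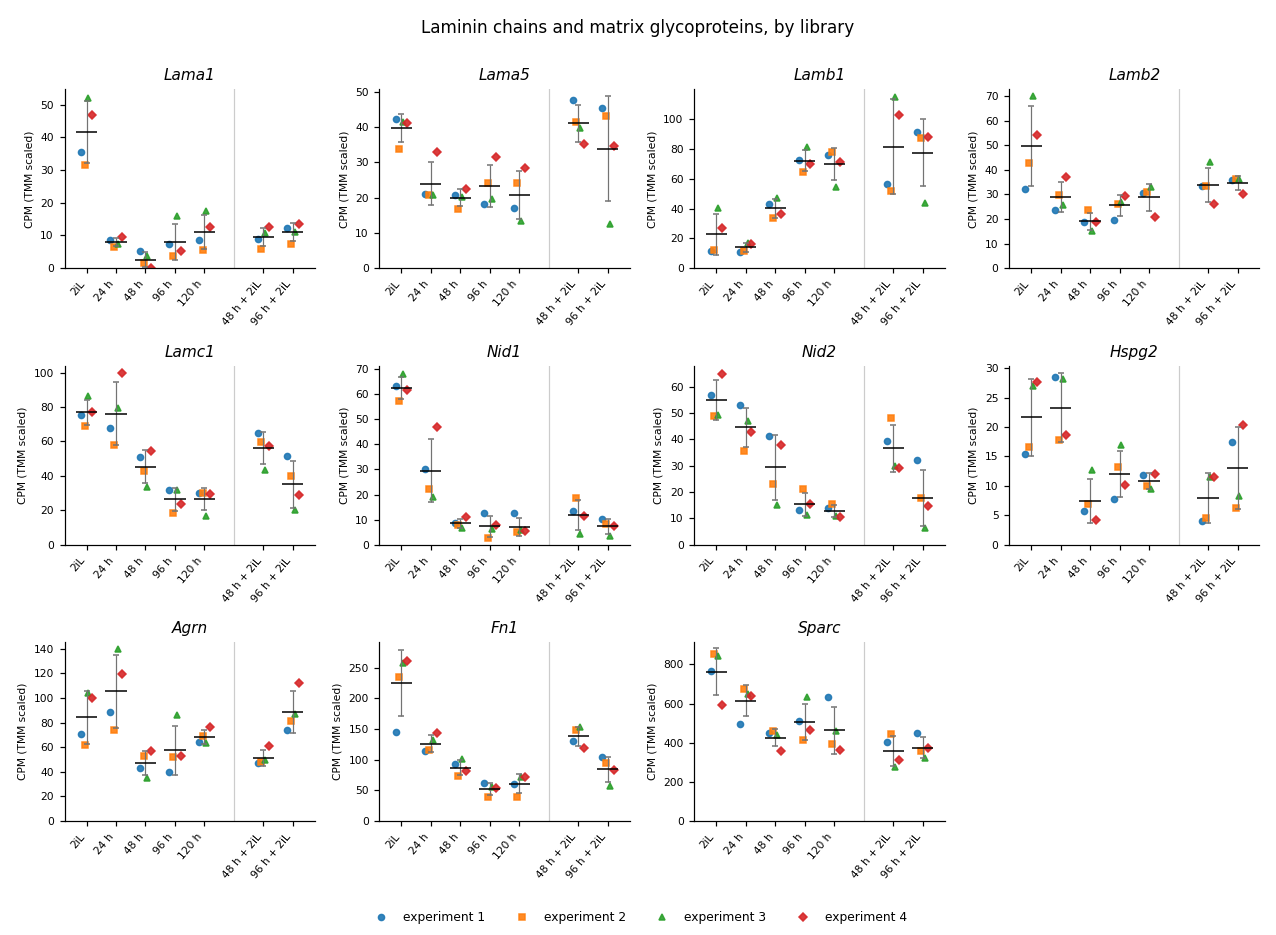
Level of 5 laminin chains and 6 linker and matrix glycoproteins in each library (CPM after TMM scaling, axes from 0), with the 7 groups along the x axis. Points are libraries, marked by experiment, lines are means and bars SD over 4 libraries. Lama1 drops from 31.6 to 51.996 CPM in 2iL to 0 to 5.16 at 48 h, and Lamb1 is the panel that climbs, to 64.4 to 81.2 at 96 h.

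Collagen genes were called mostly from 96 h, and upward. At 48 h 2 of the 18 collagen chains tested differed from 2iL, Col18a1, which rose, and Col11a1, which fell. At 96 h 7 of 18 rose and none fell, and at 120 h 8 of 18 rose and none fell. Of all genes tested 21.9% rose and 19.2% fell at 96 h, and 24.6% rose and 22.6% fell at 120 h. The share of collagens called, 38.9% at 96 h and 44.4% at 120 h, was near the 41.1% and 47.3% of all genes. Of those that rose, 4 of 7 at 96 h and 4 of 8 at 120 h were under the CPM limit in 2iL. These were Col2a1, Col23a1 and Col27a1 at both times, Col7a1 at 96 h and Col4a5 at 120 h. That they were higher in the groups through which they passed follows from the choice. Their p-values against 2iL are given as a description. The median change over the collagens tested was 0.24 at 48 h, 0.78 at 96 h and 0.64 at 120 h. Collagen IV chains, collagen XVIII and a few fibrillar and membrane collagens account for these calls, and Col1a1, Col1a2, Col3a1, Col6a1, Col6a2 and Col8a1 were called in no comparison.

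Col18a1 encodes the basement membrane collagen from which endostatin is cut, and lies on chromosome 10 from 77052178 to 77166548. It read 34.6, 24.4, 37.03 and 48.6 CPM in 2iL, 78.1, 92.9, 87.8 and 94.96 at 24 h and 139, 139.6, 145 and 97.1 at 48 h. At 96 h it read 147, 153, 173 and 143 and at 120 h 149.7, 149, 143 and 147. Already at 24 h all libraries lay above all 2iL libraries. The rise was 1.30 ± 0.19 at 24 h (adjusted p = 5.2e-06), 1.86 ± 0.18 at 48 h, 2.10 ± 0.18 at 96 h and 2.04 ± 0.18 at 120 h (adjusted p = 7.9e-11), and none of these calls was lost without any 1 library.

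The chains of the ubiquitous collagen IV, Col4a1 and Col4a2, rose by like amounts from 96 h. Col4a1, on chromosome 8 from 11198423 to 11312826, read 7.70, 8.55, 13.5 and 5.65 CPM in 2iL, 15.7, 8.92, 13.2 and 19.3 at 24 h and 18.1, 19.2, 13.4 and 9.77 at 48 h. It read 36.1, 24.6, 35.2 and 36.3 at 96 h and 49.4, 55.4, 34.97 and 36.9 at 120 h, above every 2iL library. The rise was 1.86 ± 0.28 at 96 h (adjusted p = 1.9e-06) and 2.28 ± 0.28 at 120 h (adjusted p = 3.5e-08). Col4a2, whose annotated start overlaps that of Col4a1 in the 22 bases printed above, read 1.92, 2.99, 5.99 and 5.09 CPM in 2iL, 9.59, 8.85, 16.5 and 13.3 at 96 h and 17.8, 25.2, 23.3 and 16.004 at 120 h. Its rise was 1.57 ± 0.36 at 96 h and 2.33 ± 0.36 at 120 h (adjusted p = 2.0e-06). Neither gene was called at 24 h or 48 h. The counts of the 2 genes come from the 3′ ends of transcripts, which lie at opposite ends of the locus.

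Col4a5 and Col4a6, which encode chains of a rarer collagen IV trimer, were near 0 in 2iL and were detected in all 4 libraries at 120 h. Col4a5, on chromosome X from 141475385 to 141689234, read 0, 0.855, 0 and 0.565 CPM in 2iL, 0, 1.61, 1.30 and 2.42 at 96 h and 3.34, 1.48, 8.52 and 5.78 at 120 h. Pooled counts were 44 against 3, a ratio of 14.1 (4.53 to 71.2) after division by library size, where the 95% interval covers counting error only. The fitted rise was 3.60 ± 0.88 (adjusted p = 0.0011). Col4a6, on chromosome X from 141165403 to 141474076, had too few counts for the test. It read 0.481, 0, 0 and 0 CPM in 2iL, 1.37, 0.402, 1.74 and 0 at 96 h and 1.11, 3.46, 8.07 and 2.67 at 120 h, with pooled counts of 34 against 1. It passed the CPM limit through the 120 h and 96 h + 2iL groups only. In both genes the experiment 3 library was the highest of the 120 h group.

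Fibrillar collagens followed several courses. Col2a1, the type II collagen of cartilage, notochord and early neural epithelium, lies on chromosome 15 from 97975602 to 98004695. It read 0, 0.427, 0 and 0 CPM in 2iL, 1.21, 0.469, 0 and 3.44 at 24 h and 1.03, 1.47, 1.22 and 0 at 48 h. It then read 5.02, 6.04, 14.3 and 8.88 at 96 h and 15.97, 17.8, 32.3 and 32.01 at 120 h. Pooled counts at 120 h were 223 against 1 in 2iL, a ratio of 215 (38.2 to 8527), and the fitted rise was 5.65 ± 0.98 at 96 h (adjusted p = 1.9e-05) and 7.16 ± 0.89 at 120 h (adjusted p = 5.5e-08). Summed levels of the 4 neural progenitor markers Sox1, Pax6, Pax3 and Nes were 13.5 to 23.1 CPM in 2iL, 76.5 to 209.7 at 96 h and 189.8 to 312.5 at 120 h. Their part in the Col2a1 result was not tested.

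Col11a1, a fibrillar collagen that assembles with type II, fell first and came back. It lies on chromosome 3 from 114030540 to 114220718 and read 7.70, 15.4, 25.1 and 9.04 CPM in 2iL, 5.45, 2.35, 6.90 and 4.13 at 24 h and 3.61, 1.97, 2.43 and 0 at 48 h. At 96 h it read 5.48, 4.83, 17.8 and 5.25 and at 120 h 21.2, 11.9, 30.04 and 20.005, a range that overlaps with 2iL. It fell by 2.79 ± 0.58 at 48 h (adjusted p = 3.9e-04). The 24 h call, -1.65 ± 0.52, was lost without any of 4 libraries, those of experiments 2 and 3 in 2iL and of experiments 2 and 4 at 24 h (adjusted p = 0.052 to 0.15).

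Col27a1, a fibrillar collagen of developing cartilage, read 1.44, 2.99, 0.748 and 2.26 CPM in 2iL, 5.16, 2.46, 4.25 and 1.83 at 48 h, 5.48, 4.83, 11.3 and 7.27 at 96 h and 6.31, 6.43, 14.3 and 17.3 at 120 h. It rose by 1.95 ± 0.51 at 96 h (adjusted p = 0.0023) and by 2.56 ± 0.49 at 120 h (adjusted p = 6.4e-05). Col5a1, which controls the start of fibril assembly, read 6.25, 10.3, 6.36 and 6.78 CPM in 2iL and 22.7, 20.8, 25.1 and 17.3 at 120 h, with no overlap, and rose by 1.52 ± 0.39 (adjusted p = 0.0015). Between these times it was not called, and at 48 h its libraries ranged from 2.95 to 18.2 CPM.

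Col23a1, a collagen that spans the cell membrane, read 0, 0, 0.374 and 0.565 CPM in 2iL, 1.83, 0.402, 4.34 and 2.42 at 96 h and 1.86, 5.94, 2.24 and 6.67 at 120 h. Pooled counts were 37 against 2 at 120 h, a ratio of 17.8 (4.60 to 153), and the fitted rise was 3.87 ± 0.90 (adjusted p = 5.9e-04). The 96 h rise of 3.00 ± 0.96 was lost without the experiment 3 library of 96 h (adjusted p = 0.061). Col7a1, the collagen of anchoring fibrils, read 0, 2.14, 1.12 and 2.83 CPM in 2iL and 7.76, 5.23, 3.04 and 4.44 at 96 h. Its 96 h rise of 1.74 ± 0.63 (adjusted p = 0.025) was lost without any of 3 libraries, the experiment 1 library of 96 h and the experiment 1 and 3 libraries of 2iL (adjusted p = 0.085, 0.091 and 0.070). Col22a1, a collagen of tissue junctions that did not enter the test, had pooled counts of 33 against 2 at 120 h, and passed the CPM limit through 120 h and 96 h + 2iL only.

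The chains of collagens I, III, VI and VIII that entered the test were called in no comparison. Col1a1, a chain of type I collagen on chromosome 11 from 94936224 to 94953042, read 57.7, 48.7, 104 and 69.5 CPM in 2iL, 81.6, 35.4, 103 and 41.5 at 48 h and 110.3, 47.5, 86.99 and 70.2 at 120 h. The lowest adjusted p over the 10 comparisons was 0.57, and the fitted changes lay between -0.37 and 0.23. The library of experiment 2 was the lowest for Col1a1 in 7 of 7 groups. For its partner Col1a2, which read 75.5, 96.2, 189 and 169.6 CPM in 2iL and 243, 53.9, 109 and 94.7 at 120 h, it was the lowest in 5 of 7 groups. For Col3a1, type III collagen, it was the lowest in 6 of 7 groups, for Col6a1 and Col8a1 in 6 of 7 and for Col6a2 in 5 of 7. Col3a1 had means of 14.3 ± 1.70 CPM in 2iL, 11.3 ± 3.69 at 48 h and 12.8 ± 7.25 at 120 h (SD, n = 4). Col5a2, a partner of Col5a1, and Col9a2, a chain that coats fibrils, were also called in no comparison, with lowest adjusted p of 0.20 and 0.24. Of the collagens below the count limit, Col5a3 was lowest in 2iL, at 1.004 ± 0.444 CPM, and highest at 24 h, at 4.26 ± 1.82. Col6a3 read 3.37, 1.71, 3.37 and 2.26 CPM in 2iL and 3.71, 1.48, 0.897 and 1.78 at 120 h, and Col16a1 0.962, 0.855, 1.496 and 1.13 and 2.23, 3.46, 1.35 and 3.11.

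Of 9 fibroblast markers fixed as a list, Thy1, Dcn, Fbln2, Postn and Prrx1 were detected in every group. Lum, Fap, Pdgfrb and Twist2 had group means of at most 1.14 CPM, and Fap had 0 counts in 2iL, 48 h and 96 h. Of the 5 list genes tested, 2 rose and none fell at 120 h, beside 24.6% and 22.6% of all genes tested. The summed list lay between 31.7 and 62.1 CPM in 2iL and between 57.9 and 98.4 at 120 h. In the 120 h libraries of experiments 1 to 4 Dcn read 24.1, 5.94, 8.07 and 7.56 CPM and Postn 14.5, 2.97, 8.52 and 5.78. Experiment 2 was lowest there for both and for Prrx1, but experiment 3 was lowest for Thy1 and experiment 1 for Fbln2. The lowest experiment varied between groups. For Dcn and Postn it was experiment 1 in 2iL, at 4.81 and 5.77 CPM, and experiment 2 in 96 h + 2iL, at 5.34 and 0.411. For Prrx1 it was experiment 1 in 2iL and experiment 4 in 48 h + 2iL. In the other groups Prrx1 was lowest in experiment 2, at 3.93 to 8.21 CPM. The part of such cells in the type I and III collagen levels was not tested. Of 10 endoderm markers, Gata4, Gata6, Sox17, Sox7, Thbd, Amn and Cubn had group means of at most 1.26 CPM. The summed list lay between 3.96 and 11.97 CPM in the 2iL libraries and between 20.1 and 26.7 at 120 h. Dab2, Pdgfra and Foxa2 were its highest genes at 120 h. Of the 3 list genes tested, only Foxa2 was called there (5.01 ± 1.20, adjusted p = 9.7e-04). Foxa2 had 1 count in 2iL, and its 120 h libraries ranged from 0.743 to 12.45 CPM. The part of the list in the rise of Col4a1, Col4a2 and Lamb1, which endoderm also makes, was not tested.

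**Figure D2:**
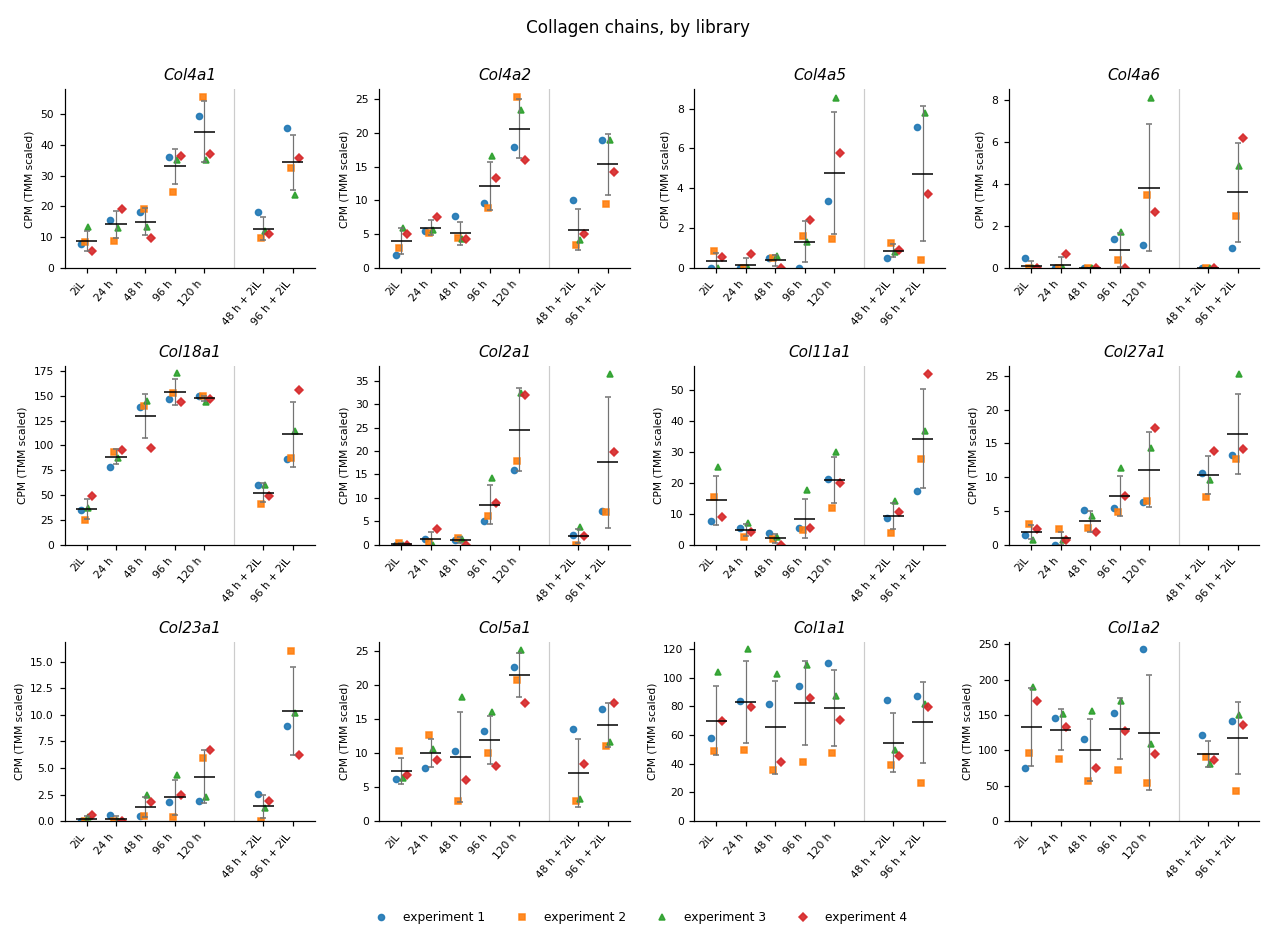
Level of 12 collagen chains in each library (CPM after TMM scaling, axes from 0) by group, with points marked by experiment, lines for means and bars for SD over 4 libraries. The 120 h libraries of Col2a1 lie at 15.97 to 32.3 CPM, against 0 to 0.427 in 2iL, and Col1a1 is lowest in experiment 2 (squares) in all 7 groups.

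Integrin chains are the cell's receptors for these matrices. The α6 chain was called first, the β1 chain was called from 96 h, and 3 chains that were low in 2iL rose by 120 h. At 24 h and 48 h 1 of the 8 integrin chains tested was called, at 96 h 3 rose and at 120 h 4 rose, and none fell at any of these times. Shares of 12.5%, 12.5%, 37.5% and 50% called were near or below the 16%, 27.8%, 41.1% and 47.3% of all genes tested. Of those that rose, 1 of 3 at 96 h (Itga1) and 2 of 4 at 120 h (Itga1 and Itgb8) were under the CPM limit in 2iL. That they were higher in the groups through which they passed follows from the choice. Their p-values against 2iL are given as a description. The median change over the integrin chains tested was 0.37 at 48 h and 0.88 at 120 h.

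Itga6, the α6 chain of laminin receptors, lies on chromosome 2 from 71745616 to 71858416. It read 102, 119, 76.7 and 101 CPM in 2iL, 148, 220.1, 161 and 189.9 at 24 h, 167, 203, 168 and 148 at 48 h and 157, 208, 107 and 151 at 96 h. At 120 h it was back at 105, 93.5, 86.99 and 94.2, within the 2iL range. The rise was 0.85 ± 0.17 at 24 h (adjusted p = 4.5e-04), 0.78 ± 0.17 at 48 h (adjusted p = 5.6e-04) and 0.65 ± 0.17 at 96 h (adjusted p = 0.0023). It was not called at 120 h (-0.07 ± 0.17, adjusted p = 0.78).

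Itgb1, the β1 chain shared by most matrix receptors, read 117, 109, 74.1 and 84.8 CPM in 2iL, 201, 175, 138 and 122 at 96 h and 229.9, 140.5, 138 and 119 at 120 h. It rose by 0.73 ± 0.21 at 96 h (adjusted p = 0.0048), and the rise of 0.71 ± 0.21 at 120 h was lost without the experiment 1 library of 120 h (adjusted p = 0.052). Itgb4, the β4 partner of α6 in hemidesmosomes, was too low for the test, with 2.89, 4.27, 2.99 and 2.83 CPM in 2iL and 1.11, 0.495, 0.448 and 2.22 at 120 h.

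Itga3, another laminin-binding chain, lies on chromosome 11 from 95044474 to 95076801. It read 7.70, 8.55, 2.62 and 2.83 CPM in 2iL, 10.3, 22.5, 4.39 and 9.63 at 24 h and 13.9, 18.7, 10.9 and 10.4 at 48 h. It read 11.4, 16.9, 7.81 and 9.29 at 96 h and 20.1, 18.8, 19.3 and 8.002 at 120 h, and experiments 1 and 2 held the highest library in all 7 groups. It rose by 1.60 ± 0.50 at 120 h (adjusted p = 0.0089). With experiment as a block it was also called at 48 h (adjusted p = 0.053 without and 0.0076 with the block) and at 96 h (0.096 without and 0.02 with the block).

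Itga1, the α1 chain of a collagen receptor, read 0.962, 0.427, 1.12 and 0.565 CPM in 2iL, 7.31, 4.83, 2.605 and 2.42 at 96 h and 6.69, 5.44, 4.48 and 2.22 at 120 h. The rise was 2.36 ± 0.66 at 96 h (adjusted p = 0.0045) and 2.50 ± 0.66 at 120 h (adjusted p = 0.0021). Itgb8, whose product pairs with αv and activates latent TGF-β, lies on chromosome 12 from 119158022 to 119238802. It had 1 count in 2iL and 0 at 24 h and 0 at 48 h, and read 2.74, 0, 1.30 and 1.62 CPM at 96 h and 3.71, 7.91, 8.07 and 4.45 at 120 h. Pooled counts at 120 h were 54 against 1 in 2iL, a ratio of 52.04 (8.95 to 2093), and the fitted rise was 5.15 ± 1.07 (adjusted p = 3.4e-04). Itgb8 passed the CPM limit through the 120 h and 96 h + 2iL groups only, so its rise there is a description. At 96 h it was called only with experiment as a block (adjusted p = 0.054 without and 0.043 with the block).

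Itgb5, Itga5 and Itgb7 were not called at any time without 2iL. Itgb5, an αv partner that binds vitronectin, had means of 18.1 ± 4.45 CPM in 2iL and 14.4 ± 5.02 at 120 h (SD, n = 4). Itga5, the α chain of the fibronectin receptor, had 1.75 ± 0.784 and 3.63 ± 1.03, and Itgb7, a chain best known from leukocytes, 3.07 ± 2.21 and 1.02 ± 0.943. Of the integrin-like symbols, the centromere gene Itgb3bp rose by 1.00 ± 0.22 at 120 h (adjusted p = 2.7e-04), and Itgb1bp1 was called in no comparison. Itgb3bp also rose by 0.60 ± 0.22 at 96 h, a call lost without any of 4 libraries (adjusted p = 0.062 to 0.094), those of experiments 2, 3 and 4 in 2iL and of experiment 3 at 96 h.

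**Figure D3:**
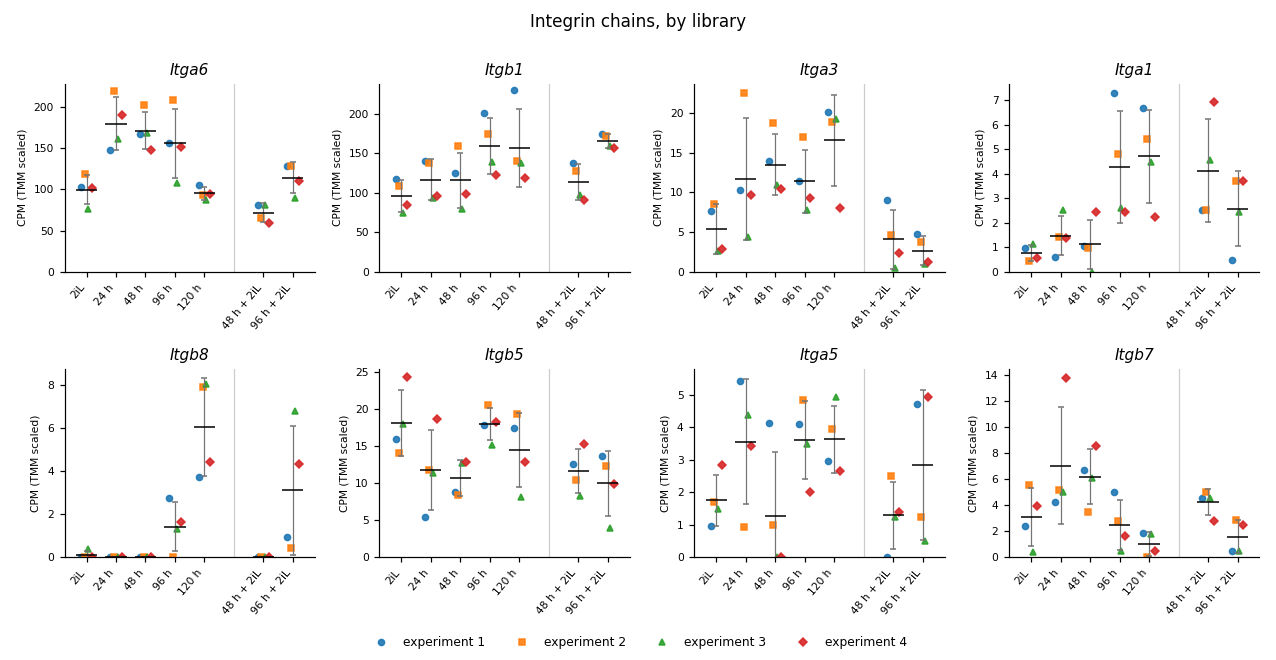
Level of 8 integrin chains in each library (CPM after TMM scaling, axes from 0) by group, with points marked by experiment, lines for means and bars for SD over 4 libraries. Itga6 rises to 148 to 220.1 CPM at 24 h and is at 86.99 to 105 at 120 h, while Itgb8 has no counts at 24 h, 48 h or 48 h + 2iL.

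Counted over all members tested, more were called at the later times, and the later calls held more rises. At 24 h 8 of 40 members were called (2 rose, 6 fell), where 16% of all genes tested were called (7.68% rose, 8.29% fell). At 48 h 15 were called (3 rose, 12 fell), where the background was 27.8% (14.6% rose, 13.2% fell). At 96 h 22 were called (12 rose, 10 fell) beside 41.1% (21.9% rose, 19.2% fell). At 120 h 24 were called (14 rose, 10 fell) beside 47.3% (24.6% rose, 22.6% fell). As shares, 20%, 37.5%, 55% and 60% of members were called at the 4 times. Of the rises, 4 collagens and 1 integrin chain at 96 h were under the CPM limit in 2iL. At 120 h 4 collagens and 2 integrin chains were. That those were higher in the groups through which they passed follows from the choice, so part of the increase in rises does too. The counts are a description of the chosen members, and all 4 comparisons share the 2iL libraries. The other 9 of the 49 members were below the count limit: Col11a2, Col16a1, Col22a1, Col4a6, Col5a3, Col6a3, Itgb4, Lama4 and Lamb3.

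**Figure D4:**
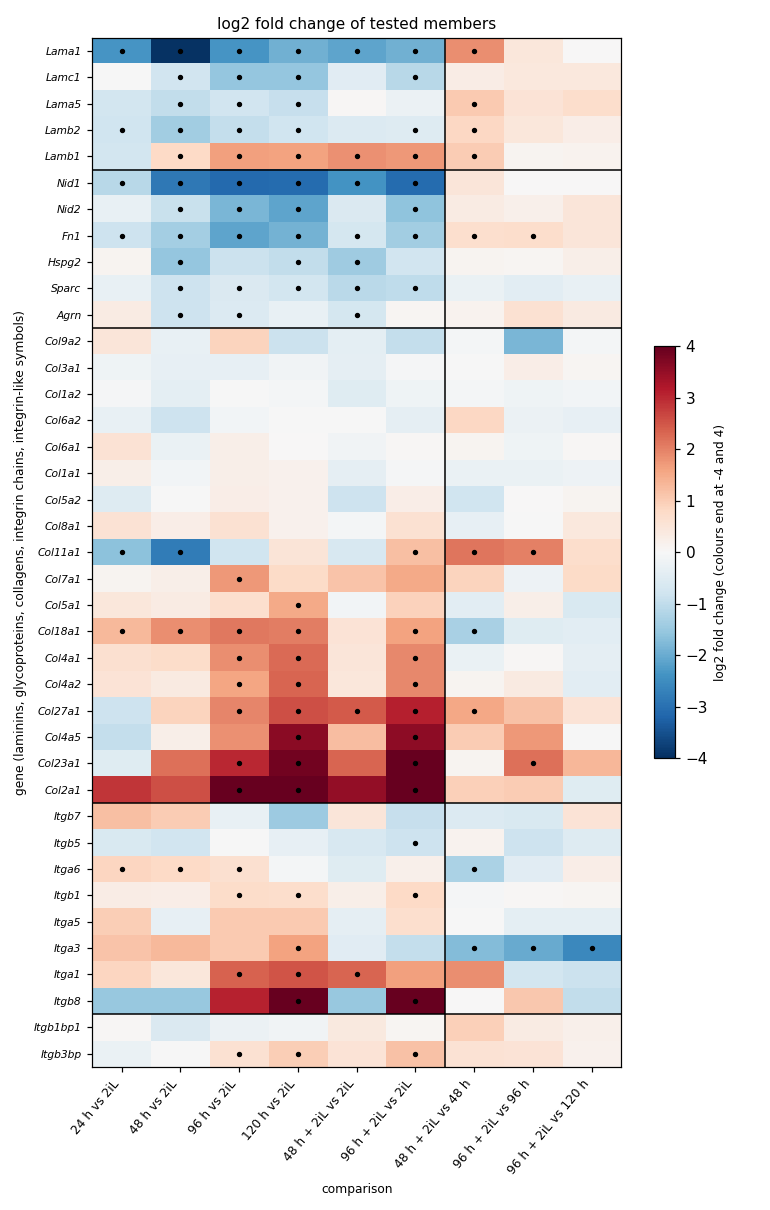
Log2 fold change of members tested (rows, grouped as laminins, glycoproteins, collagens, integrin chains and integrin-like symbols) in 9 comparisons (columns), with a dot where the adjusted p was under 0.05. In the columns against 2iL the laminin and glycoprotein rows are mostly blue (lower) except Lamb1, and 8 collagens have a dot and are red (higher) at 120 h. The columns to the right of the line show the return of 2iL against 48 h, 96 h and 120 h.

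In 48 h + 2iL, 4 laminin chains and fibronectin were higher than at 48 h, and Col18a1, Itga6 and Itga3 were lower. No group without 2iL matches 48 h + 2iL in elapsed time. The return of 2iL and the added 24 h of culture therefore cannot be told apart here. Of 40 members 10 were called against 48 h (7 rose, 3 fell), where 14.9% of all genes tested were called (7.24% rose, 7.66% fell). The genes that rose were Lama1, Lama5, Lamb1, Lamb2, Fn1, Col11a1 and Col27a1. Without the experiment 3 library of 48 h + 2iL, 6 were called.

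Lama1 read 9.06, 5.86, 10.8 and 12.5 CPM in 48 h + 2iL, above all 48 h libraries and below all 2iL libraries. It rose by 1.85 ± 0.51 against 48 h (adjusted p = 0.011) and stood at -2.12 ± 0.38 against 2iL (adjusted p = 3.0e-04). Lama5 read 47.8, 41.5, 39.7 and 35.2, overlapping with 2iL, and rose by 1.04 ± 0.27 (adjusted p = 0.0077). Fn1 read 131, 149, 153 and 119 and rose by 0.66 ± 0.19 (adjusted p = 0.014), a call lost without the experiment 2 library of 48 h (adjusted p = 0.051).

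Lamb1, which had risen on withdrawal, was higher in 48 h + 2iL than at 48 h. It read 56.4, 51.9, 115 and 103 CPM in 48 h + 2iL, with the experiment 3 and 4 libraries above those of experiments 1 and 2, as in 2iL. The rise was 1.03 ± 0.28 against 48 h (adjusted p = 0.01), lost without the experiment 3 library of 48 h + 2iL (adjusted p = 0.059), and 1.82 ± 0.29 against 2iL (adjusted p = 5.2e-05). Lamb2 rose by 0.82 ± 0.23 (adjusted p = 0.011), lost without the same library (adjusted p = 0.055). Its β3 relative Lamb3, absent from the test for low counts, read 4.53, 4.61, 6.62 and 4.63 CPM in 48 h + 2iL and 2.06, 0.983, 1.22 and 0.610 at 48 h, with no overlap. Against 2iL the pooled counts were 46 against 3, and Lamb3 passed the CPM limit through 48 h + 2iL only. In 96 h + 2iL Lamb3 read 3.31, 0, 0 and 0.618 CPM.

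Nid1, Hspg2 and Sparc were not called against 48 h and were lower than in 2iL. Nid1 read 13.6, 18.4, 4.14 and 11.6 CPM, -2.39 ± 0.35 against 2iL (adjusted p = 1.7e-05). Sparc read 403, 443, 279 and 310.0, -1.09 ± 0.16 against 2iL (adjusted p = 2.1e-05), and Hspg2 4.03, 4.61, 11.6 and 11.6, -1.43 ± 0.37 (adjusted p = 0.0086).

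Col18a1 fell to 60.4, 40.6, 59.99 and 49.1 CPM, -1.31 ± 0.18 against 48 h (adjusted p = 2.1e-06). Itga6 fell to 81.5, 64.9, 81.5 and 58.9 CPM, below every 48 h library, a change of -1.26 ± 0.17 (adjusted p = 2.5e-06). Both calls held without any 1 library. Against 2iL neither was called, but with experiment as a block Col18a1 was higher (adjusted p = 0.036) and Itga6 lower (adjusted p = 0.034). Itga3 fell to 9.06, 4.61, 0.414 and 2.32 CPM, a change of -1.75 ± 0.53 (adjusted p = 0.022), and this call was lost without the experiment 2 library of 48 h or the experiment 3 or 4 library of 48 h + 2iL (adjusted p = 0.080, 0.092 and 0.075).

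Col11a1 read 8.56, 3.77, 14.1 and 10.7 CPM, all above 48 h, and rose by 2.14 ± 0.61 (adjusted p = 0.014), lost without the experiment 3 library of 48 h + 2iL (adjusted p = 0.059) or the experiment 4 library of 48 h (adjusted p = 0.054). Col27a1 read 10.6, 7.12, 9.52 and 13.9 and was 2.45 ± 0.50 against 2iL (adjusted p = 0.0011). Its rise of 1.56 ± 0.47 against 48 h was lost without the experiment 2 or 4 library of 48 h or the experiment 4 library of 48 h + 2iL (adjusted p = 0.066, 0.070 and 0.067). Itga1 read 2.52, 2.51, 4.55 and 6.95 CPM and was 2.31 ± 0.67 against 2iL, a call lost without any of 4 libraries (adjusted p = 0.053 to 0.088), those of experiments 2 and 4 in 2iL and of experiments 3 and 4 in 48 h + 2iL.

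In all, 10 members differed between 48 h + 2iL and 2iL (3 rose, 7 fell), where 11.6% of all genes tested differed (6.14% rose, 5.49% fell). Col27a1, Itga1 and Lamb1 were higher, and Nid1, Lama1, Hspg2, Sparc, Agrn and Fn1 were among those that were lower. Of these, Col27a1 and Itga1 were under the CPM limit in 2iL and passed it through groups that include 48 h + 2iL. That they were higher there follows from the choice, and their p-values against 2iL are given as a description. The Agrn call, -0.71 ± 0.21, was lost without any of 5 libraries (adjusted p = 0.056 to 0.10): the experiment 1, 2 and 3 libraries of 48 h + 2iL and the experiment 3 and 4 libraries of 2iL. Col2a1 was called only with experiment as a block (adjusted p = 0.057 without and 0.023 with the block).

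In 96 h + 2iL, 2 collagens and fibronectin were higher than at 96 h, and Itga3 was lower. These groups also differ by 24 h of culture. Against 120 h, at equal elapsed time, only Itga3 was called. Against 96 h 4 of 40 were called (3 rose, 1 fell), where 9.24% of all genes tested were called (4.02% rose, 5.23% fell), and 9 were called with experiment as a block (5 rose, 4 fell). The 4 were Col11a1, Col23a1 and Fn1, which rose, and Itga3, which fell. The block added Agrn and Col27a1, which rose, and Col18a1, Itga6 and Sparc, which fell. Without the experiment 2 library of 96 h only Col11a1 was called, and without the experiment 3 library of 96 h 7 members were.

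Col11a1 read 17.5, 27.5, 36.8 and 54.995 CPM and rose by 2.02 ± 0.45 against 96 h (adjusted p = 0.0029). Col23a1 read 8.98, 16.02, 10.2 and 6.18, above every 96 h library, and rose by 2.19 ± 0.60 (adjusted p = 0.016), a call lost without the experiment 1 or 2 library of 96 h or the experiment 2 library of 96 h + 2iL (adjusted p = 0.061, 0.083 and 0.074). Col23a1 passed the CPM limit through 120 h and 96 h + 2iL only, so its rise over 96 h is a description. Fn1 read 104, 95.3, 57.2 and 82.8 and rose by 0.70 ± 0.20 (adjusted p = 0.019), lost without the experiment 2 library of 96 h or the experiment 1 or 2 library of 96 h + 2iL (adjusted p = 0.093, 0.068 and 0.057). The highest Fn1 values, in experiments 1 and 2, and the lowest, in experiment 3, were in the same libraries as the highest and the lowest Nanog. Itga3 read 4.73, 3.70, 0.969 and 1.24, -2.03 ± 0.56 against 96 h (adjusted p = 0.018), lost without the experiment 2 library of 96 h or the experiment 3 or 4 library of 96 h + 2iL (adjusted p = 0.080, 0.065 and 0.065).

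Col11a2, another fibrillar chain that was too low for the test, had no counts at 96 h and read 0.473, 2.05, 4.85 and 6.80 CPM in 96 h + 2iL. Its pooled counts were 27 against 0, and it passed the CPM limit through 96 h + 2iL only. At 120 h it read 0.743, 0.989, 1.35 and 0.889 CPM.

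The experiment 3 library of 96 h + 2iL was the lowest of its group for several members as well as for Nanog. It was not the lowest for Lama1, Col18a1, Col4a2 or Col4a5. Lama5 read 45.4, 43.1, 12.6 and 34.6 CPM in experiments 1 to 4, Lamb1 91.2, 87.1, 43.6 and 87.7 and Lamc1 51.5, 39.8, 19.9 and 29.04. Nid2 read 32.1, 17.7, 6.30 and 14.8 and Itgb5 13.7, 12.3, 3.88 and 9.89. Without this library 20 members (13 rose, 7 fell), in place of 21, differed between 96 h + 2iL and 2iL. The calls on Itgb5 (-0.84 ± 0.33) and Lamb2 were lost (adjusted p = 0.18 and 0.068), and Col22a1, which then entered the test, was gained. The Itgb5 call was also lost without the experiment 3 or 4 library of 2iL or the experiment 4 library of 96 h + 2iL (adjusted p = 0.065, 0.12 and 0.065).

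At equal elapsed time, 96 h + 2iL and 120 h differed in 1 member of 40, Itga3, which fell, where 2.63% of all genes tested differed (1.28% rose, 1.34% fell). The change in Itga3 was -2.56 ± 0.55 (adjusted p = 0.0059), and every 96 h + 2iL library was below every 120 h library. Another 4 members had an unadjusted p under 0.05, and DESeq2 also called 1 member. Calls missed here do not show that the other members were alike: Fn1, for example, read 57.2 to 104 CPM in 96 h + 2iL and 38.6 to 71.6 at 120 h.

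Against 2iL, the 96 h + 2iL group differed in 21 members of 40 (12 rose, 9 fell), where 41% of all genes tested differed (21.4% rose, 19.5% fell). Of those that rose, Col2a1, Col23a1, Itgb8, Col4a5 and Col27a1 were under the CPM limit in 2iL and passed it through groups that include 96 h + 2iL. That these were higher there follows from the choice, and their p-values against 2iL are given as a description. Lama1 read 12.3, 7.39, 11.1 and 13.6 CPM, below every 2iL library, a change of -1.91 ± 0.38 (adjusted p = 1.3e-04). Nid1 read 10.4, 8.21, 3.39 and 7.42, -3.08 ± 0.37 (adjusted p = 5.9e-08). On the other side, Col4a1 read 45.4, 32.4, 23.7 and 35.8 CPM and Col4a2 18.9, 9.45, 18.9 and 14.2, 1.92 ± 0.28 and 1.91 ± 0.36 (adjusted p = 1.5e-06 and 6.8e-05). Col27a1 read 13.2, 12.7, 25.2 and 14.2, 3.12 ± 0.49 (adjusted p = 4.2e-06), and Col18a1 86.5, 87.1, 115 and 156, 1.62 ± 0.18.

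Of the low genes, Col2a1 read 7.09, 6.98, 36.3 and 19.8 CPM in 96 h + 2iL, pooled counts of 139 against 1 in 2iL and a ratio of 149.6 (26.4 to 5951). Its highest values were in experiments 3 and 4, the libraries with the lower Nanog. Experiments 3 and 4 also held its highest values at 96 h and 120 h. Nanog there read 12.8, 10.5, 5.64 and 12.1 CPM at 96 h and 10.8, 17.3, 13 and 17.8 at 120 h. A relation of Col2a1 to Nanog was not tested. Col23a1 had 89 against 2 counts, a ratio of 47.9 (12.9 to 402), and Itgb8 24 against 1, a ratio of 25.8 (4.21 to 1062). Col4a5 read 7.09, 0.411, 7.75 and 3.71 CPM and Col4a6 0.945, 2.46, 4.85 and 6.18. The ratio of Col4a5 to 2iL was 13.6 (4.33 to 69.03). All of these low genes passed the CPM limit only through groups other than 2iL, so their rises are a description. In experiment 2 Col4a5 was low and Col4a6 was not. The call on Col11a1 against 2iL, 1.22 ± 0.42, was lost without the experiment 1 or 4 library of 2iL or the experiment 4 library of 96 h + 2iL (adjusted p = 0.078, 0.069 and 0.12), and that on Lamb2, -0.52 ± 0.21, without any 1 of the 96 h + 2iL libraries or the experiment 3 or 4 library of 2iL (adjusted p = 0.065 to 0.30).

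Whether members responded differently to 2iL after 96 h and after 48 h was tested as the difference of the 2 responses. Each response also includes 24 h more of culture. edgeR called 0 of 40 members, where 0.921% of all genes tested were called, and DESeq2 also called 0. At an unadjusted p under 0.05 there were 6: Itga6, Col18a1, Itga1, Lamb1, Lama1 and Itgb5. Itga6 differed by 0.81 ± 0.24 (adjusted p = 0.11, and 0.029 with experiment as a block). Col18a1 differed by 0.83 ± 0.24 (adjusted p = 0.1, and 0.053 with the block). So 10 members called after 48 h and 4 after 96 h do not by themselves show that the responses differ.

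Genes that make, modify and sense these proteins were examined in 6 lists. Among 17 tested genes for collagen folding, hydroxylation and secretion, 6 rose and 5 fell at 120 h. Fkbp10, P3h4 and Serpinh1, which encode helpers of collagen folding and modification, rose by 2.69 ± 0.41, 2.55 ± 0.43 and 2.53 ± 0.32 (adjusted p = 2.1e-06, 1.0e-05 and 7.7e-08). Crtap, a partner of prolyl 3-hydroxylase, fell by 1.57 ± 0.57 (adjusted p = 0.023). Serpinh1, the collagen chaperone HSP47, read 8.66, 17.1, 21.7 and 46.9 CPM in 2iL and 119, 105, 160.5 and 151 at 120 h, with no overlap. At 48 h 3 of the 17 rose and 2 fell, shares near the 14.6% and 13.2% of all genes tested, with P3h4 at 2.56 ± 0.44 and Fkbp10 at 2.24 ± 0.42.

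Of 6 tested genes for collagen processing and crosslinking, 3 rose and 2 fell at 120 h. Pxdn, peroxidasin, which crosslinks collagen IV, rose by 4.21 ± 0.55 (adjusted p = 1.2e-07) and read 0.481, 1.28, 1.87 and 1.13 CPM in 2iL and 30.8, 16.3, 26.4 and 21.3 at 120 h. The lysyl oxidase relative Loxl2 rose by 2.91 ± 0.51 and the procollagen protease Bmp1 by 2.72 ± 0.47. Pcolce, an enhancer of that protease, fell by 3.51 ± 0.25 (adjusted p = 5.0e-13).

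Inside the cell, 8 of 23 tested integrin adaptor and focal adhesion genes rose and 8 fell at 120 h, a list that includes the member Itgb1bp1. Parva and Zyx, which encode parvin α and zyxin, rose by 3.14 ± 0.40 and 2.98 ± 0.25 (adjusted p = 1.0e-07 and 1.3e-11). Parvb, parvin β, fell by 2.61 ± 0.43 (adjusted p = 6.3e-06), so the 2 parvin genes moved in opposite directions. In 48 h + 2iL against 48 h, Zyx (-1.23 ± 0.24), Bcar1 (-1.77 ± 0.39) and Actn4 (-0.40 ± 0.12) fell and none of the 23 rose. Of all genes tested in that comparison 7.66% fell and 7.24% rose.

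Among 17 other matrix receptors 9 rose and 5 fell at 120 h. The collagen receptor kinase Ddr1 rose by 2.87 ± 0.32 and the proteoglycan Gpc1 by 3.91 ± 0.25, and the tetraspanin Cd9 fell by 3.15 ± 0.33 (adjusted p = 8.0e-09, 6.6e-14 and 2.6e-09). Of 15 matrix proteases and inhibitors 9 rose and 3 fell, with the gelatinase gene Mmp2 at 2.45 ± 0.36, Mmp15 at 2.85 ± 0.51, Timp1 at -2.94 ± 0.35 and Adam19 at -3.71 ± 0.40. Of 19 other matrix glycoproteins and proteoglycans 9 rose and 2 fell, with the brain proteoglycan Ncan at 5.71 ± 0.55, the basement membrane protein Fras1 at 4.15 ± 0.67 and osteopontin, Spp1, at -3.96 ± 0.33. These counts are to be read beside the 24.6% of all genes tested that rose and the 22.6% that fell at 120 h.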

How the data were processed

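The deposited files hold raw counts per gene for each of 28 libraries (31053 genes per file). The authors' series table holds CPM for 30386 genes, which equalled CPM computed from the counts in 28 of 28 columns within 1e-06. No pair of libraries was identical. Per the submitters' processing notes, bcl2fastq, STAR 2.6.0a, HTSeq and the mm10 build were used, with roles not given. Uncounted reads with several alignments made up 52.3% to 60.1% of each file's total, so genes with close copies are undercounted. The deposited CPM chose the members, and the counts were used for every test. Positions are from GENCODE M21.

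Counts were filtered with filterByExpr (10 counts, 15 in total) and scaled by TMM, and tested with edgeR's quasi-likelihood test (edgeR 4.0.16, limma 3.58.1, R 4.3.3), two-sided. The model had 1 mean for each group and used 28 libraries and 11080 genes, with Benjamini-Hochberg adjustment. DESeq2 1.42.0, RLE, library totals, no filter, experiment as a block and each library left out were alternatives. On simulated counts for 48 h against 2iL (11080 genes), 62% of 2-fold and 89% of 4-fold changes were recovered, with 7 false calls among 10880 genes. The changed genes had a mean of at least 10 counts per library, so members with fewer counts are not covered. The simulated fit held the 48 h and 2iL libraries only, and each gene had the spread usual at its level. Ratios of pooled counts have exact 95% intervals.

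The experiment number in each title was read as marking a shared experiment, which is where the pairing comes from. Deviations of same-numbered libraries correlated from -0.01 to 0.42, over 0.1 in 13 of 36 pairs. Between 96 h + 2iL and 96 h they were 0.252, 0.21, 0.408 and 0.0263 in experiments 1 to 4. Between 96 h + 2iL and 120 h they were 0.331, 0.153, 0.419 and 0.0712. The main model did not use this pairing. Full values go to the 4 largest called rises and falls per comparison, partner chains of those laminins and integrins, and up to 3 uncalled members per family. From each further list up to 4 called genes per comparison are named. Members and lists were chosen with earlier results of these data known. Further members beyond this rule were named after their values were seen. Results on 1 member are not reported here.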

Additional observations from a re-analysis of the deposited data

Results flagged for a closer look

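In 8 of the 99 groups of 4 libraries looked at (the 17 members with the largest changes, groups with over 10 counts), 1 library lay far from the other 3 by Dixon's criterion, and chance alone flags about 1 group in 20. Col11a1 read 17.8 CPM in the experiment 3 library of 96 h, with 4.83 to 5.48 in the others. Col18a1 read 97.1 CPM in the experiment 4 library of 48 h, below 139 to 145. Col27a1 read 25.2 CPM in the experiment 3 library of 96 h + 2iL, above 12.7 to 14.2. Itga3 read 8.002 CPM in the experiment 4 library of 120 h, below 18.8 to 20.1. Lama5 read 33.8 CPM in the experiment 2 library of 2iL, below 41.3 to 42.3, and 33.0 CPM in the experiment 4 library of 24 h, above 20.7 to 21.2. Lamb1 read 43.6 CPM in the experiment 3 library of 96 h + 2iL, below 87.1 to 91.2. Nid1 read 12.6 CPM in the experiment 1 library of 120 h, above 4.95 to 5.83.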

How the results depend on the processing

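Of 115 calls on members over the 10 comparisons, none changed direction under any alternative, and 87 were kept without each library in turn. DESeq2, RLE size factors and experiment as a replicate block each kept all 115, library totals in place of TMM lost 4, and testing all genes without the count filter lost 3. For 96 h + 2iL against 96 h, 8 members were called without the filter and 9 with the replicate block, in place of 4. For the difference of the responses to 2iL, 4 were called without the filter and 1 with the block, in place of 0, and the cause was not tested. The block changed no other call than those given with the results. Leaving out 1 library at a time gave 6 to 11 calls for 48 h + 2iL against 48 h, 1 to 7 for 96 h + 2iL against 96 h, 1 to 2 for 96 h + 2iL against 120 h and 0 to 1 for the difference. It gave 6 to 8, 13 to 16, 20 to 23 and 23 to 26 calls at 24 h, 48 h, 96 h and 120 h against 2iL, 7 to 11 for 48 h + 2iL and 20 to 24 for 96 h + 2iL against 2iL. Library totals moved the median of all genes at 120 h by 0.12 on the log2 scale. Members with a few CPM rest on a handful of counts per library, so changes in them can be missed at this depth.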
